A study of Mus musculus with 9 samples.

Results

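Of the 9 uterus libraries of the series, the 6 described here compare a uterus exposed to tamoxifen and then to primidone with one exposed to tamoxifen only. They are the 3 libraries of mice given both drugs and the 3 of mice given tamoxifen alone, taken by their labels and compared over all genes. Both groups of female mice received tamoxifen at 1 mg/kg on days 1 to 5 after birth, a treatment that the study used to induce adenomyosis, the growth of endometrial glands and stroma into the uterine muscle. From week 10 the tamoxifen+primidone mice had daily injections of primidone, 2 mg/kg, for 3 weeks, while the tamoxifen mice received vehicle (a label reading "vesicle", taken here as vehicle). The uterus was collected at 13 weeks of age and whole-tissue RNA was sequenced. The 3 control libraries, from mice that received neither drug, entered the statistical fit to share its estimate of spread, and their values are given for orientation. The p-values set the difference between groups against the spread between mice within groups. Strain, litter and estrous stage are not among the labels. If they differed between the groups, that could not be told apart from an effect of primidone.

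Primidone is an anticonvulsant whose liver metabolites include phenobarbital, and it blocks TRPM3, a calcium-permeable channel of the transient receptor potential (TRP) family gated by heat and by pregnenolone sulfate. The uterus is paced by ovarian steroids. Estrogen makes the epithelium divide and secrete proteins such as lactoferrin and complement C3, while progesterone, acting through stromal factors such as HAND2, restrains that response. Tamoxifen is a selective estrogen receptor modulator, and exposure of the newborn mouse uterus, when its muscle and glands are still forming, leaves lasting changes.

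Library totals in the whole series ran from 36393120 to 39958443 counts. Genes typical of uterus were present in all 6 libraries. The estrogen receptor gene Esr1 read 276, 308 and 292 CPM (counts scaled to library size, with TMM factors) in tamoxifen and 352, 302 and 341 in tamoxifen+primidone. Hoxa11, which patterns the uterus, read 87.3, 87.3 and 69.1 and 118, 107 and 120.0. These genes do not show whether other tissue was present, and markers of other tissues, given below, varied between mice. The typical difference between libraries, the median absolute log2 difference over genes, was 0.2025 to 0.2595 for the 9 pairs that cross the groups. It was 0.1834 to 0.2048 within tamoxifen and 0.1965 to 0.2396 within tamoxifen+primidone, so the primidone libraries lay about as far from each other as from the tamoxifen libraries. In whole tissue, fewer cells of a type and less RNA per cell cannot be told apart.

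Of 15186 genes tested, 2 fell and 0 rose with primidone at an adjusted p under 0.05 (edgeR quasi-likelihood test, Benjamini-Hochberg). The shares called were 0.0132% lower and 0% higher. The 2 were Hgfac and Tmprss11d, both coding for serine proteases. At an unadjusted p under 0.05, 956 genes (6.3%) were higher and 1140 (7.51%) lower. Counting genes whose 3 libraries per group did not overlap, 1227 (8.08%) were higher and 1298 (8.55%) lower, and 164 and 172 of these differed by more than 2-fold in the mean. DESeq2 called 211 genes higher and 367 lower on the same counts (1.38% and 2.4% of those it tested). The balance of directions at unadjusted p depended on scaling: upper-quartile factors gave 1310 higher and 901 lower, and limma on log2(FPKM + 1) gave 1795 and 694. Leaving out tamoxifen+primidone replicate 1 changed the count to 62 genes called higher and 23 lower (0.404% and 0.15%), many of the former being cell cycle genes.

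**Figure D1:**
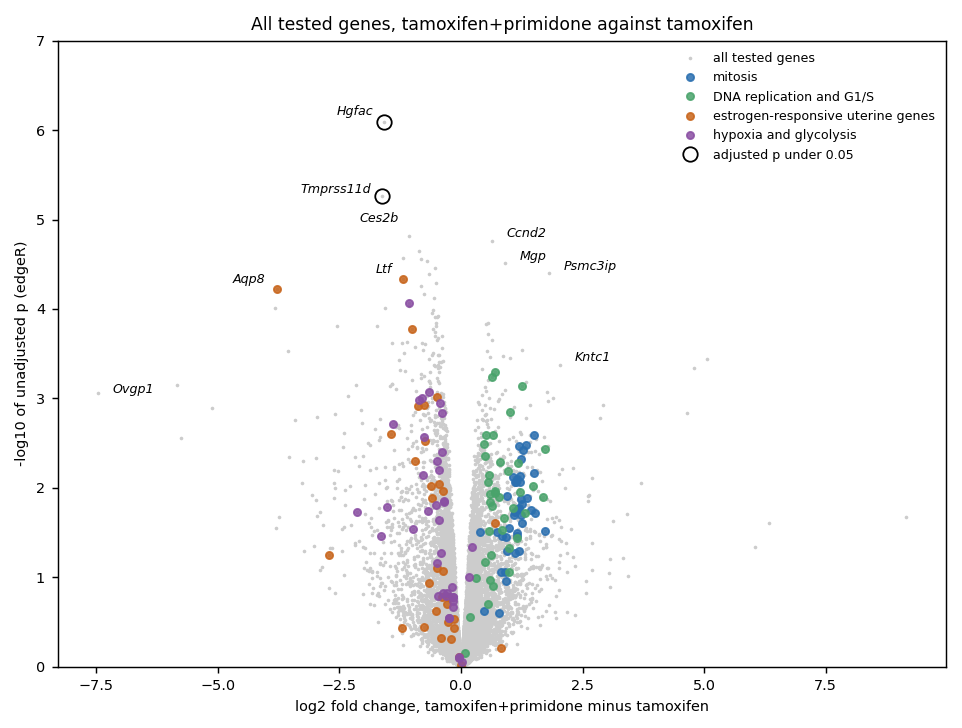
Each grey point is 1 of the 15186 tested genes, placed by its log2 fold change (tamoxifen+primidone minus tamoxifen, horizontal) and by the negative log10 of its unadjusted edgeR p (vertical); members of 4 gene lists are coloured. Only Hgfac and Tmprss11d, circled, passed the adjusted threshold, and the points of the mitosis and DNA replication lists lie to the right of 0 while most of the estrogen-responsive and hypoxia lists lie to the left.

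Hgfac codes for the plasma serine protease HGF activator, which cleaves hepatocyte growth factor (HGF) into the form that activates the receptor MET. The gene is expressed mainly by liver and by some epithelia. Hgfac read 118, 86.1 and 125 CPM in tamoxifen and 35.9, 36.1 and 38.3 in tamoxifen+primidone. Every primidone library was below every other library of the series, control libraries included at 99.6, 88.6 and 119. The gene fell by 1.57 on the log2 scale (-1.57 ± 0.15, SE; edgeR adjusted p = 0.0123). It was not a trace transcript: its mean level per transcript length was 49.2 FPKM in tamoxifen and 17.4 in tamoxifen+primidone. The summed CPM of 30 liver marker genes was 405.5, 288.1 and 587.4 in tamoxifen and 579.5, 718.8 and 582.9 in tamoxifen+primidone. All 30 of 30 had a positive log2 fold change, but the sum of tamoxifen replicate 3 lay within the primidone range. The part of liver-type RNA in the Hgfac values was not tested.

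Tmprss11d codes for a membrane-anchored trypsin-like protease of epithelial surfaces, known from the airway. It read 39.3, 37.7 and 35.4 CPM in tamoxifen and 9.98, 16.2 and 10.1 in tamoxifen+primidone, against 20.4, 16.7 and 22.4 in control. The 3 groups did not overlap: tamoxifen was highest, control intermediate and tamoxifen+primidone lowest. The gene fell by 1.63 on the log2 scale with primidone (-1.63 ± 0.19, SE; edgeR adjusted p = 0.0418). Both calls sit near the limit of the design. Without tamoxifen replicate 1 the adjusted p was 0.0534 for Hgfac and 0.146 for Tmprss11d, without control replicate 1 it was 0.0551 and 0.112, and on the 6 libraries alone it was 0.156 for Tmprss11d. Without tamoxifen+primidone replicate 1 both remained called.

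The sequences just upstream of the 2 called genes are shown because these are the only promoters that the test singled out. They are the 100 bases before the annotated start on the gene's own strand, from the RefSeq promoter table of build GRCm38.p6, and both genes lie on chromosome 5.
Hgfac, chr5:35041409-35041508, plus strand: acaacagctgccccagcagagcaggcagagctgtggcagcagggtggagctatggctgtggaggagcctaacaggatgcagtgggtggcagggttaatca
Tmprss11d, chr5:86373388-86373487, minus strand: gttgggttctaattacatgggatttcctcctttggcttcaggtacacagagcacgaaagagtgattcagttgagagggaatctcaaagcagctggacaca
Capitals would mark a match to any of the 5 motifs searched on both strands: the full estrogen response element, the E2F element GCGGGAAA, the cell cycle genes homology region TTTGAA, the hypoxia response core ACGTG and the interferon-stimulated response element TTTCNNTTTC. None of these letters occurs in either 100-base window, which says nothing about the factors that bind there. Over the 300 bases searched per gene, the Hgfac promoter did hold the hypoxia core ACGTG, outside the window shown. Tmprss11d held none of the 5 motifs. The estrogen response element was present in 2 of the 11958 promoters of tested genes in the table (0.0167%) and in 0 of 28 promoters of the estrogen-responsive list. The table holds 300 bases per gene, 250 before and 50 after the start.

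The list of HGF activation and surface serine proteases had 19 tested members, of which 16 had a negative fold change. Their median was -0.42 on the log2 scale against 0.02 over all tested genes. At an unadjusted p under 0.05, 11 of the 19 were lower and 0 higher, against 7.51% and 6.3% of all tested genes. The list holds both called genes, Hgfac and Tmprss11d, and was chosen with earlier results of these data known. These counts are therefore no independent support for the 2 calls. Among the activating proteases, matriptase St14 read 402, 474 and 378 CPM in tamoxifen and 299.9, 391 and 320.1 in tamoxifen+primidone, and Tmprss2 read 95.5, 99.0 and 96.0 and 73.7, 81.2 and 83.5. Both Kunitz inhibitors that hold HGF activator and matriptase in check were on the same side. Spint1 read 96.5, 80.6 and 88.5 and then 70.5, 67.3 and 75.5 CPM (-0.32 ± 0.08, edgeR adjusted p = 0.170), and Spint2 read 586, 570.4 and 479.7 and then 447, 451 and 447. The receptor gene Met read 112, 129 and 92.1 CPM in tamoxifen and 77.4, 91.9 and 89.8 in tamoxifen+primidone (-0.36 ± 0.12, edgeR adjusted p = 0.227). The ligand gene Hgf, made by stroma, read 10.1, 12.2 and 4.96 and 11.3, 13.3 and 7.47 CPM, with overlapping groups. The lower values were thus in proteases, inhibitors and receptor alike, all genes expressed by epithelial cells. General epithelial genes had lower values too, with a summed CPM of 7702 to 8120 in tamoxifen and 5520 to 6650 in tamoxifen+primidone, and their part in this list was not tested.

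The other 13 of the 15 genes named for the smallest p on the lower side had edgeR adjusted p between 0.0518 and 0.0629, so none of them passed. The naming rule required that their groups not overlap. They included secreted products of the epithelium. Ltf, lactoferrin, the standard estrogen-response gene of the mouse uterus, read 11160.5, 9338 and 7308 CPM in tamoxifen and 3730.1, 3492 and 4936 in tamoxifen+primidone (-1.19 ± 0.18, edgeR adjusted p = 0.0539). Ccl28, a mucosal chemokine that recruits IgA-secreting plasma cells, read 341, 385 and 442 and 186, 253 and 219 CPM, with control at 186, 201 and 193.

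Cdkn1a, which codes for the cyclin-dependent kinase inhibitor p21, read 49.1, 49.1 and 48.2 CPM in tamoxifen and 33.6, 28.3 and 27.8 in tamoxifen+primidone (-0.71 ± 0.10, edgeR adjusted p = 0.0518). Btg2, an antiproliferative gene induced by p53, read 208, 204 and 196 and 137, 145 and 135 CPM (-0.54 ± 0.08, edgeR adjusted p = 0.0518). The tamoxifen replicates of both genes lay close together, and all 3 primidone libraries were below them. Rasd1, a small GTPase induced by dexamethasone, read 37.2, 30.9 and 31.0 and then 17.4, 16.1 and 20.8 CPM, with control above both at 54.2, 48.3 and 49.6. The matrix glycoprotein gene Papln read 38.1, 25.3 and 36.3 and 15.6, 13.5 and 14.4 CPM, and Chst8, a sulfotransferase that acts on glycoprotein hormone sugars, 73.0, 66.5 and 87.9 and 41.9, 48.1 and 39.3.

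On the higher side no gene passed. Ccnd2, cyclin D2, had the smallest p, at 39.0, 39.1 and 39.6 CPM in tamoxifen and 56.4, 62.6 and 63.5 in tamoxifen+primidone (0.63 ± 0.08, edgeR adjusted p = 0.0518). Its partner kinase gene Cdk4 read 181, 170.3 and 164 and 193, 203 and 232 CPM. The list of D-type cyclins and cell cycle inhibitors, which holds Ccnd2 and Cdkn1a, had 10 members positive and 4 negative (median 0.13), with 3 higher and 2 lower at unadjusted p. Mgp, matrix Gla protein, an inhibitor of calcification made by smooth muscle and stroma, read 301, 232 and 263 CPM and 522, 412 and 563 (0.91 ± 0.13, edgeR adjusted p = 0.0518), close to control at 445, 469 and 442. Psmc3ip, a cofactor of strand exchange in homologous recombination, read 2.08, 2.32 and 2.94 and 10.6, 10.0 and 5.21 CPM (1.81 ± 0.27, edgeR adjusted p = 0.0518), and control read 13.8, 15.3 and 16.4. Phgdh, the first enzyme of serine synthesis, read 13.4, 7.92 and 11.9 and 21.9, 24.4 and 20.5, and Srgn, the proteoglycan core of secretory granules, 97.5, 123 and 90.4 and 171, 152 and 159. The groups did not overlap for any of these 6 genes, which the rule for naming genes by smallest p required. The tamoxifen libraries of Ccnd2 were nearly identical, and a small spread also favours selection by p.

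**Figure D2:**
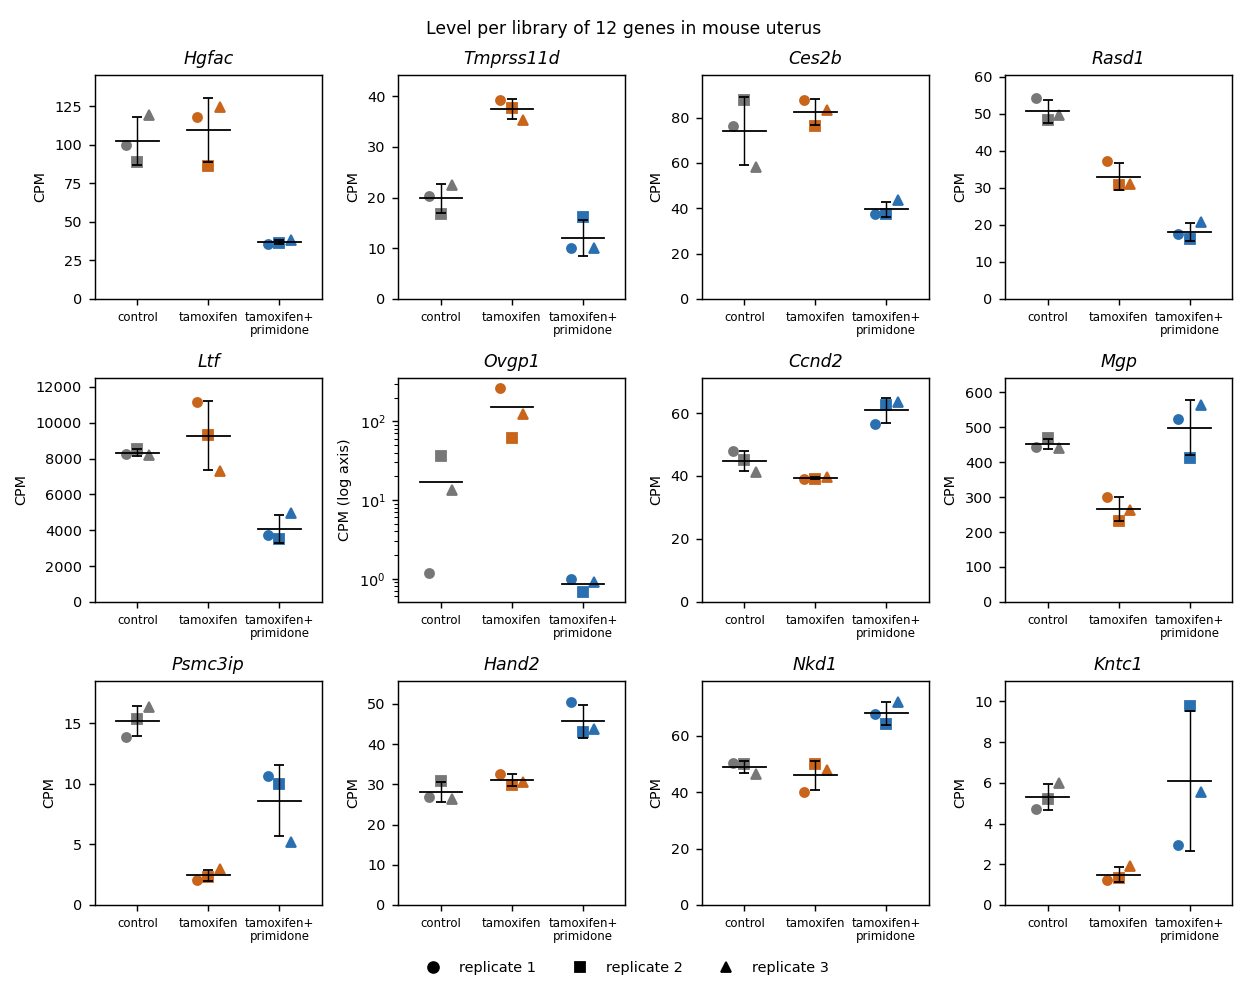
CPM of 12 genes in each of the 9 libraries (vertical, from 0 except Ovgp1, which is on a log axis), by group, with marker shape for the replicate number, a horizontal bar for the group mean and whiskers for ± 1 SD (n = 3; no whiskers on the log axis). Tamoxifen and tamoxifen+primidone do not overlap for any of the 12, a condition of the rules for naming genes by smallest p or largest fold change. Kntc1 shows primidone replicate 1 below replicates 2 and 3.

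The estrogen-responsive list had 32 tested members, 29 of them with a negative log2 fold change, and a median of -0.49 against 0.02 over all tested genes. At unadjusted p under 0.05, 13 members were lower and 1 higher, against 7.51% and 6.3% of all tested genes. Groups were separated on the lower side for 13 (8.55% of all genes). In edgeR 0 passed the adjusted threshold, and DESeq2 called 10 lower (2.4% of all it tested). The summed level of the list was 53890, 46160 and 49740 CPM in tamoxifen and 22240, 28570 and 31550 in tamoxifen+primidone, with control between 40630 and 43730. The list thus took 4.99% of counts in tamoxifen and 2.75% in tamoxifen+primidone on average. The primidone libraries were the lowest 3 of the 9 in the series.

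Most of that mass is secreted protein. C3, complement component 3, read 23026, 18626 and 21307 CPM in tamoxifen and 9903, 13548 and 13934 in tamoxifen+primidone (-0.75 ± 0.17, edgeR adjusted p = 0.125). Lcn2, the iron-siderophore carrier lipocalin 2, read 6792, 3986 and 6341 and 1068, 2523 and 2737 (-1.44 ± 0.35, edgeR adjusted p = 0.151). Sprr2f, a small proline-rich protein of the luminal surface, read 2724, 3106 and 2442 and 1003, 1692 and 1428 (-1.004 ± 0.17, edgeR adjusted p = 0.0737), though reads may be split among the near-identical Sprr2 copies. For all 4 of these abundant genes, Ltf included, every primidone library was below every tamoxifen library. Per transcript length Lcn2 was the most abundant list member in tamoxifen, at 6572 FPKM, above Sprr2f at 4459.6, C3 at 3963 and Ltf at 3326.

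The largest relative difference in the list was that of Aqp8, a water channel, which read 2.98, 4.14 and 3.60 CPM in tamoxifen and 0.440, 0.127 and 0.201 in tamoxifen+primidone (-3.79 ± 0.58, edgeR adjusted p = 0.0567). The mucin genes Muc1 and Muc4 read 571, 625 and 532 and 1258, 1798 and 1698 CPM in tamoxifen and 329, 508 and 428 and 503, 833 and 1119 in tamoxifen+primidone. Padi1, a peptidylarginine deiminase, read 2239, 2275 and 2978 and 1278, 1236 and 1994. Wnt7a, the luminal epithelial Wnt ligand, was the 1 member higher at unadjusted p, at 23.3, 36.5 and 27.3 and 51.7, 44.4 and 44.4 CPM. The receptor genes had overlapping groups: Esr1 had a log2 fold change of 0.18 ± 0.09 (edgeR adjusted p = 0.379) and the progesterone receptor gene Pgr, itself an estrogen target, -0.03 ± 0.12 (adjusted p = 0.930), at 237, 277 and 282 and 307, 225 and 244 CPM.

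The epithelial list shared the direction at a smaller size. Of 26 tested members 20 were negative, with a median of -0.34, and 13 were lower and 1 higher at unadjusted p under 0.05 (7.51% and 6.3% over all genes). Its leading members were the tight-junction genes Cldn4, at 69.3, 66.6 and 60.7 CPM and then 46.3, 49.9 and 46.3 (-0.46 ± 0.08, edgeR adjusted p = 0.0693), and Cldn3, at 214, 197 and 189 and 147, 153 and 145. The epithelial transcription factor genes Ehf and Elf3 had log2 fold changes of -0.47 ± 0.09 and -0.38 ± 0.09, and E-cadherin, Cdh1, -0.34 ± 0.09. Prom1, a protein of apical membrane protrusions, read 778, 702 and 563 and 243, 473 and 346. The median of the estrogen-responsive list, -0.49, lay below that of the epithelial list, a difference that was not tested, and the part of epithelial content in the estrogen-responsive values was not tested either.

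Several enzymes of drug and ester metabolism were among the smallest p-values. Ces2b, a carboxylesterase, read 87.9, 76.3 and 83.3 CPM in tamoxifen and 37.6, 37.5 and 43.4 in tamoxifen+primidone (-1.06 ± 0.14, edgeR adjusted p = 0.0518). Ces1d read 228, 176 and 217 and 127, 127 and 115 (-0.75 ± 0.12, edgeR adjusted p = 0.0613). Por, the reductase that feeds electrons to every microsomal cytochrome P450, read 308, 327 and 284 and 223, 202 and 206 (-0.54 ± 0.09, edgeR adjusted p = 0.0629). All 3 had separated groups, which the rule for naming genes by smallest p required. Carboxylesterase genes also lie in clusters of similar copies, which calls for caution. The list as a whole had no common direction: 12 of 27 tested members were positive and 15 negative, with 2 higher and 6 lower at unadjusted p (6.3% and 7.51% over all genes). In liver, phenobarbital acts through the receptor CAR on Cyp2b10. In these uteri Cyp2b10 had 0, 0 and 0 counts in tamoxifen and 1, 0 and 0 in tamoxifen+primidone, and the CAR gene Nr1i3 had 0, 1 and 2 and then 3, 3 and 3, so both were too low to test.

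The biggest fold differences on the lower side came from genes that were scattered or scarce. Ovgp1, oviductin, the secreted glycoprotein of oviduct epithelium, read 267, 61.9 and 124 CPM in tamoxifen and 0.982, 0.684 and 0.906 in tamoxifen+primidone (-7.46 ± 1.35, edgeR adjusted p = 0.117), and 1.18, 36.5 and 13.4 in control. The control libraries were themselves far apart. Foxj1, the master factor of ciliated cells and also on the ovary and oviduct marker list, read 0.847, 0.276 and 1.43 and 0.207, 0.152 and 0.0755. That list summed to 273.5, 67.15 and 134 CPM in tamoxifen and 9.822, 6.18 and 10.39 in tamoxifen+primidone, a difference almost wholly due to Ovgp1 itself. Of its 5 tested members 3 were positive and 2, Ovgp1 and Foxj1, negative, with a median of 0.06. The ovarian member Star, a steroidogenic cholesterol carrier, read 4.08, 1.54 and 6.34 and 5.35, 3.12 and 7.45 CPM, with overlapping groups, and Inha and Gdf9 overlapped too. The oocyte gene Zp3 and the granulosa gene Amh were too low to test. The part of oviduct RNA in the Ovgp1 values was not tested. Ceacam2, an adhesion molecule with a close copy in Ceacam1, read 96.2, 2.23 and 81.7 and 0.905, 1.11 and 1.31, so tamoxifen replicate 2 was near the primidone level and the other two were far above it.

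Some other genes named for large fold differences had their highest values in tamoxifen. Chil1, a chitinase-like secreted protein of inflamed tissue, read 8.75, 8.81 and 20.6 CPM in control, 99.5, 80.7 and 153 in tamoxifen and 5.04, 13.4 and 24.4 in tamoxifen+primidone (-2.96 ± 0.62, edgeR adjusted p = 0.134). Nox1, an epithelial superoxide-producing oxidase, read 0.0523, 0.214 and 0.243, 4.19, 3.42 and 6.36 and 0.0259, 0.684 and 1.06 in the same order. Nos2, the inducible nitric oxide synthase, read 0.287, 0.455 and 0.135, 1.28, 12.2 and 1.92 and 0.129, 0.532 and 0.654, with tamoxifen replicate 2 standing alone at the top. Every tamoxifen library was above every other library for these 3 genes. For Nox1 primidone replicate 1 was below control and replicates 2 and 3 lay between control and tamoxifen.

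Cell division genes shared one direction in the fit but differed between the primidone libraries. In the mitosis list 40 of 40 tested members had a positive log2 fold change, with a median of 1.16, and 32 were higher at unadjusted p under 0.05, against 6.3% of all genes. In the DNA replication list 39 of 39 were positive (median 0.70, 30 at unadjusted p), and in the list of homologous recombination and chromatin-associated repair 20 of 20 (median 0.82, 16 at unadjusted p). None passed the adjusted threshold in edgeR, while DESeq2 called 17, 17 and 8 of them higher (1.38% of all it tested). The 3 lists are expressed by the same dividing cells, so their members are not independent of each other.

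The difference came from 2 of the 3 primidone libraries. Relative to the tamoxifen mean, the median mitosis gene in tamoxifen+primidone replicates 1, 2 and 3 stood at -0.03, 1.67 and 1.35 on the log2 scale, with 16, 40 and 40 of the 40 genes above it. For DNA replication the medians were 0.05, 1.00 and 0.86, with 24, 38 and 39 of 39 above. Replicate 1 was thus at the tamoxifen level for both lists. For the recombination list it was intermediate, with medians of 0.38, 1.16 and 0.85. Group ranges were separated on the higher side for 6 of 40 mitosis genes, 9 of 39 replication genes and 10 of 20 recombination genes, against 8.08% of all tested genes.

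Individual genes show the split. Ect2, an exchange factor needed for cytokinesis, read 3.59, 3.01 and 2.63 CPM in tamoxifen and 3.90, 13.3 and 8.83 in tamoxifen+primidone (1.496 ± 0.37, edgeR adjusted p = 0.153). Top2a, topoisomerase II alpha, read 21.4, 20.0 and 18.6 and 18.2, 72.7 and 62.5, and the proliferation marker Mki67 23.6, 24.2 and 23.7 and 25.3, 71.1 and 60.9. Mcm3, a subunit of the replicative helicase, read 23.8, 19.4 and 21.2 and 27.2, 53.0 and 50.3. In these 4 genes primidone replicate 1 lay within or close to the tamoxifen range and replicates 2 and 3 well above it. Pola1 and Pold1, DNA polymerase subunits, differed from that pattern: Pola1 read 12.5, 9.68 and 11.2 and 15.98, 19.6 and 18.5 CPM, and Pold1 11.8, 15.3 and 12.4 and 19.5, 21.6 and 20.7, with all 3 primidone libraries above all 3 tamoxifen libraries. Kntc1, a kinetochore protein with the largest fold change of the genes named on the higher side, read 1.23, 1.32 and 1.89 and 2.92, 9.78 and 5.56 (2.03 ± 0.40, edgeR adjusted p = 0.0927).

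Without tamoxifen+primidone replicate 1 edgeR called 62 genes higher and 23 lower. The higher calls included 22 of 40 mitosis, 18 of 39 replication and 4 of 20 recombination genes, against 0.404% of all genes. The library left out is the one in which the mitosis and replication lists stood at the tamoxifen level. These counts restate that split and are no independent support. Without replicate 2 it called 1 higher and without replicate 3 it called 3 higher. The control libraries had summed mitosis levels of 603.3 to 800.6 CPM, tamoxifen 191.6 to 229.9 and tamoxifen+primidone 199.1 to 626.7. For this list replicate 1 was thus at the tamoxifen level and the others moved into or towards the control range. In summed CPM, replicates 2 and 3 lay above the control range for the replication and recombination lists. Their replication sums were 1130 and 1083 CPM, against 663.5 to 728.9 in control. Their recombination sums were 749.1 and 732.4 CPM, against 628.3 to 698.2 in control. By the list median relative to the tamoxifen mean, recombination differed from this. Replicate 3, at 0.849, was within the control range of 0.702 to 0.862, and replicate 2, at 1.155, was above it. Erythroid markers were spread over the primidone libraries, with medians of 1.25, 0.52 and -0.71 relative to the tamoxifen mean in replicates 1, 2 and 3, and their part in the mitosis values was not tested.

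**Figure D3:**
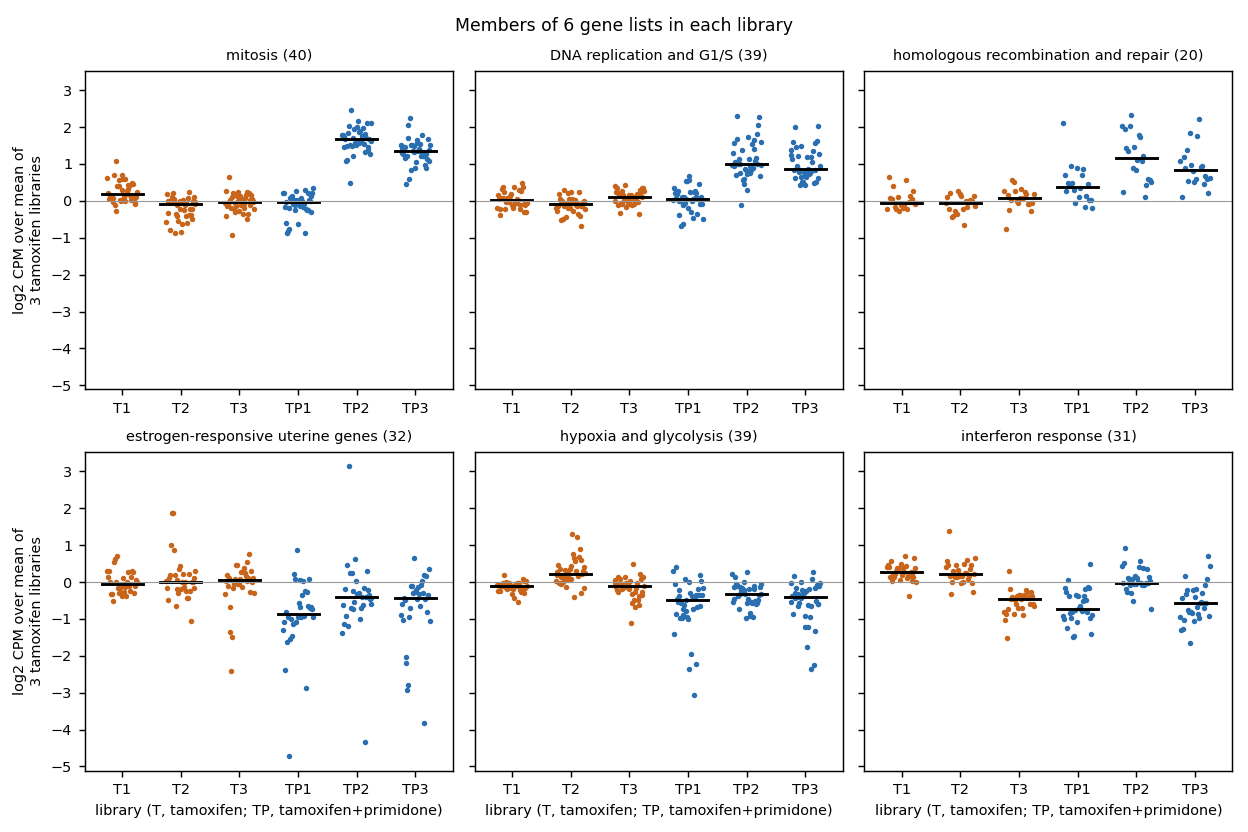
Each point is 1 list member in 1 library, as log2 CPM over its mean in the 3 tamoxifen libraries (vertical), for 6 lists; T is tamoxifen, TP tamoxifen+primidone, bars are medians, and the number of genes is in brackets. The mitosis and replication lists stand near 0 in TP1 and near or above 1 in TP2 and TP3, whereas the estrogen-responsive and hypoxia lists are below 0 in all 3 TP libraries.

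Many genes of the late cell cycle carry a promoter element, the cell cycle genes homology region TTTGAA, and some S-phase genes carry the E2F element GCGGGAAA. Promoters of the mitosis list are shown because their genes move together. The TTTGAA letters, on either strand, were in 27 of 34 mitosis promoters in the table (79.4%), against 14.9% of the 11958 promoters of tested genes of the same 300-base length. GCGGGAAA was in 6 of 33 replication promoters (18.2%) against 2.15% overall. Capitals mark the element in 17 bases of context on each side, on the gene's strand, build GRCm38.p6.
Ect2, chr3:27153970-27154009: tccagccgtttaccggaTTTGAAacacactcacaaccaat
Ccnf, chr17:24251517-24251556: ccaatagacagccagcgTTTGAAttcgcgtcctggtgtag
Mki67, chr7:135716455-135716494: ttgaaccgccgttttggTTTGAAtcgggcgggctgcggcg
Top2a, chr11:99024190-99024229: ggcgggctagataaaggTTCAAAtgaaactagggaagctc
Mcm7, chr5:138172024-138172065: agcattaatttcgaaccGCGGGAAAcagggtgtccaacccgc
Cdc6, chr11:98907996-98908037: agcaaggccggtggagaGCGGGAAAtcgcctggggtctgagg
The first 4 carry the cell cycle element, which in Top2a is on the opposite strand, and the last pair the E2F element. Of these genes Ccnf, cyclin F, read 2.70, 2.79 and 2.91 CPM in tamoxifen and 3.05, 9.02 and 9.11 in tamoxifen+primidone, and Mcm7, another helicase subunit, 41.9, 40.7 and 36.4 and 44.8, 64.2 and 60.9. A match describes the sequence only.

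Hypoxia and glycolysis genes had lower values in all 3 primidone libraries. Of 39 tested members 36 were negative, with a median of -0.40, and 21 were lower and 1 higher at unadjusted p under 0.05 (7.51% and 6.3% over all genes). Groups were separated on the lower side for 19 (8.55% over all genes), 0 passed in edgeR and DESeq2 called 12 lower (2.4%). The summed level was 5592 to 7020 CPM in tamoxifen, 4248 to 4815 in tamoxifen+primidone and 4691 to 4936 in control. Relative to the tamoxifen mean the list median was -0.49, -0.32 and -0.42 in the 3 primidone libraries. Unlike the cell cycle lists, replicate 1 was on the same side as the others.

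Pdk1, the kinase that closes the entry of pyruvate into mitochondria, had the smallest p of the list, at 22.5, 32.5 and 22.1 CPM in tamoxifen and 13.0, 12.9 and 10.8 in tamoxifen+primidone (-1.07 ± 0.17, edgeR adjusted p = 0.0679). Slc2a1, the glucose transporter GLUT1, read 53.2, 89.5 and 61.1 and 33.3, 44.4 and 35.1 (-0.85 ± 0.19, edgeR adjusted p = 0.120). Egln1, the oxygen-sensing prolyl hydroxylase that is itself induced by hypoxia-inducible factor, read 165, 207 and 139 and 102, 113 and 107. The abundant glycolytic enzymes had smaller differences. Aldoa, aldolase A, read 741, 867 and 738 and 601, 602 and 584 (-0.39 ± 0.09), Tpi1, triose phosphate isomerase, 509, 639 and 534 and 379, 449 and 448 (-0.40 ± 0.11), and Eno1, enolase, 267, 302 and 270.4 and 183, 232 and 208 (-0.43 ± 0.10). Tamoxifen replicate 2 was the highest library for each of these but not the only high one.

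The core of the hypoxia response element, ACGTG, was in 25 of 36 promoters of this list in the table (69.4%), against 27.7% of all promoters of tested genes. These letters were not particular to the list. They were also in 10 of 16 core clock promoters (62.5%) and 8 of 15 progesterone-responsive promoters (53.3%). The windows of 3 members are shown (GRCm38.p6, gene strand, core in capitals).
Egln1, chr8:124949301-124949339: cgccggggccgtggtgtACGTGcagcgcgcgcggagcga
Slc2a1, chr4:119108692-119108730: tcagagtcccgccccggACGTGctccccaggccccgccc
Aldoa, chr7:126799359-126799397: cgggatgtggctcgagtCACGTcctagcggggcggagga
In Aldoa the core is on the opposite strand.

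Interferon-response genes were lower in 2 of 3 primidone libraries and in 1 tamoxifen library. Of 31 tested members 30 were negative, with a median of -0.37. Of these 6 were lower at unadjusted p under 0.05 (7.51% over all genes) and 1 had separated groups (8.55% over all genes). Relative to the tamoxifen mean, the list median was 0.28, 0.21 and -0.45 in tamoxifen and -0.74, -0.03 and -0.58 in tamoxifen+primidone. Tamoxifen replicate 3 therefore sat with primidone replicates 1 and 3, and primidone replicate 2 sat with the other tamoxifen libraries. Oasl1, an antiviral oligoadenylate synthetase-like protein, was the separated member, at 87.2, 74.3 and 48.9 CPM and 24.6, 48.0 and 38.7 (-0.92 ± 0.26, edgeR adjusted p = 0.189). Irf7, the factor that amplifies interferon output, read 447, 373 and 197 and 152, 358 and 154. The libraries of the 2 groups interleaved for this list as a whole.

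The interferon-stimulated response element TTTCNNTTTC was in 14 of 24 promoters of this list in the table (58.3%) against 3.89% overall. Bst2, which codes for the antiviral protein tetherin and read 352, 335 and 262 and 222, 295 and 212 CPM, carries it on the opposite strand.
Bst2, chr8:71537570-71537613: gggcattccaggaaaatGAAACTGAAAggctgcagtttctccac
Ifit1, chr19:34640787-34640830: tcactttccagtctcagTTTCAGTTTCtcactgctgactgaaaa
These windows are shown as the element common to the group that varied between mice of the same treatment.

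Inflammatory mediators went both ways. Of 26 tested members 9 were positive and 17 negative, with 3 higher and 4 lower at unadjusted p, against 6.3% and 7.51% over all genes. Cxcl17, a mucosal chemokine, read 413, 295 and 359 CPM in tamoxifen and 166, 233 and 212 in tamoxifen+primidone (-0.80 ± 0.15, edgeR adjusted p = 0.0803), on the same side as Ccl28. Il33, an alarmin stored in stromal and endothelial nuclei, read 55.4, 51.4 and 55.8 and 110.2, 85.2 and 89.9 (0.81 ± 0.22, edgeR adjusted p = 0.178). The acute-phase genes Saa1 and Saa2, near-identical copies, read 2.00, 3.01 and 7.57 and 1.54, 2.81 and 5.98 CPM in tamoxifen and 13.9, 10.7 and 12.5 and 12.1, 10.6 and 10.1 in tamoxifen+primidone. Serum amyloid A is also a product of liver, whose markers had higher values in the same libraries, and the part of liver-type RNA in this was not tested. The list median changed sign, from -0.29 to 0.03, without tamoxifen replicate 2.

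Hand2, the progesterone-induced stromal factor that restrains epithelial growth factor signalling, read 32.7, 29.7 and 30.6 CPM in tamoxifen and 50.5, 43.0 and 43.7 in tamoxifen+primidone (0.56 ± 0.10, edgeR adjusted p = 0.0776). Hoxa10 read 94.4, 93.0 and 70.8 and 141, 116 and 124 (0.56 ± 0.14), and Hoxa11 had a log2 fold change of 0.50 ± 0.14; both are needed for implantation. The groups did not overlap for any of the 3 genes, each with the primidone libraries above. The progesterone-responsive list that holds them had 13 of 19 tested members positive, with a median of 0.07, 5 higher and 1 lower at unadjusted p (6.3% and 7.51% over all genes). The 1 lower was Ctsl, cathepsin L, at 1117, 713 and 688 and 332, 616 and 476. Gli1, a Hedgehog target in stroma, read 6.497, 9.65 and 9.41 and 29.8, 9.09 and 19.2, with primidone replicate 2 inside the tamoxifen range. The wider stromal marker list, which also holds these 3, had 6 of 11 tested members positive and a median of 0.02. At unadjusted p under 0.05, 5 of its members were higher and 1 lower (6.3% and 7.51% over all genes). Its summed levels were 3778 to 4558 CPM in tamoxifen and 3204 to 5033 in tamoxifen+primidone, which overlap.

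Wnt pathway genes also had mostly positive fold changes. Of 36 tested members 25 were positive, with a median of 0.30, and 12 were higher and 0 lower at unadjusted p under 0.05 (6.3% and 7.51% over all genes). The groups were separated for 12 on the higher side and 4 on the lower, where 8.08% and 8.55% of all genes were. The leading members were inhibitors and feedback genes. Nkd1, which binds Dishevelled and is switched on by Wnt, read 40.01, 49.9 and 48.0 CPM and 67.8, 64.1 and 72.2 (0.57 ± 0.10, edgeR adjusted p = 0.0717), and its relative Nkd2 30.8, 37.1 and 27.8 and 53.8, 56.6 and 69.3 (0.91 ± 0.19). The secreted antagonists Dkk2 and Sfrp1 read 36.3, 35.7 and 32.2 and 33.3, 20.7 and 31.3 CPM in tamoxifen and 52.2, 47.5 and 42.3 and 50.9, 39.7 and 46.1 in tamoxifen+primidone. Apcdd1, a membrane inhibitor of Wnt, had a fold change of 0.53 ± 0.16. Ctnnb1, beta-catenin itself, read 1166, 1147 and 1158 and 1029, 1052 and 1151, with overlapping groups.

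**Figure D4:**
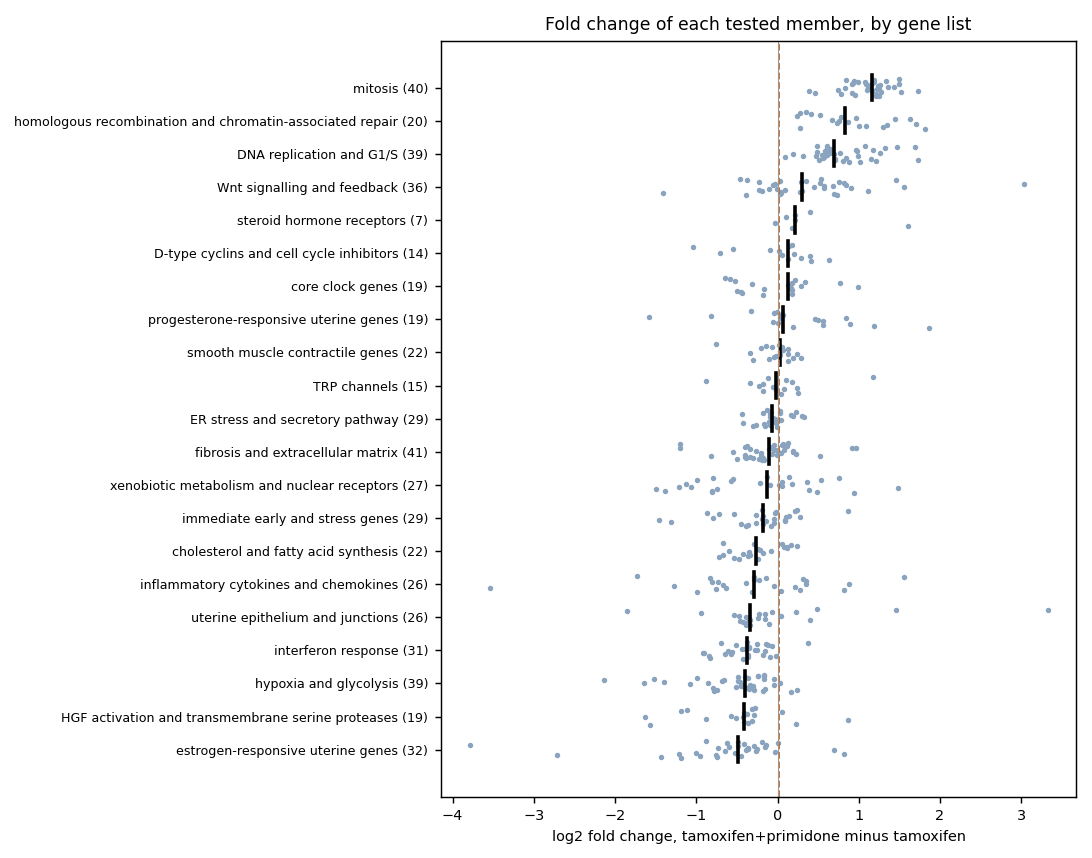
Log2 fold change (tamoxifen+primidone minus tamoxifen, horizontal) of each tested member of 21 gene lists, with the number of members in brackets; black bars are list medians, the dashed line is the median of all tested genes (0.02). Medians run from -0.49 for the estrogen-responsive list to 1.16 for mitosis, and the mitosis, DNA replication and recombination lists have no member below 0.

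Smooth muscle contractile genes had a median of 0.02 over 22 tested members, with 1 higher and 0 lower at unadjusted p (6.3% and 7.51% over all genes). Acta2, smooth muscle actin, read 1948, 1875 and 2385 CPM in tamoxifen and 2394, 1965 and 2403 in tamoxifen+primidone (0.12 ± 0.17, edgeR adjusted p = 0.804). Oxtr, the oxytocin receptor, read 129, 87.8 and 174 and 67.7, 78.3 and 86.4, separated but with an adjusted p of 0.428 in edgeR. Of 41 tested extracellular matrix genes 14 were positive and 27 negative, with a median of -0.10, 3 higher and 9 lower at unadjusted p, the former near the 6.3% over all genes and the latter above 7.51%. Col4a1, a basement membrane collagen, read 641, 614 and 739 and 447, 527 and 441 (-0.50 ± 0.13, edgeR adjusted p = 0.162), and Loxl2, a collagen crosslinker, 80.5, 65.0 and 78.8 and 48.0, 52.9 and 52.6. At 3 libraries a group these differences were not past the threshold, which does not show that they are absent.

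Stress-induced early genes had 8 of 29 tested members positive and 21 negative (median -0.18), with 2 higher and 8 lower at unadjusted p (6.3% and 7.51% over all genes). Besides Rasd1 and Btg2, Ier3, an apoptosis regulator, read 71.6, 182 and 132 CPM and 43.5, 54.7 and 42.0 (-1.46 ± 0.29, edgeR adjusted p = 0.112). Fosl2, an AP-1 subunit, read 296, 355 and 316 and 263, 252 and 235.

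Primidone's channel target was barely present. Trpm3 had 21, 21 and 4 counts in tamoxifen and 17, 31 and 9 in tamoxifen+primidone, or 0.539, 0.579 and 0.102 and 0.440, 0.785 and 0.226 CPM (0.25 ± 0.67, edgeR adjusted p = 0.906). With an error of that size, a 2-fold change of Trpm3 was not detectable at this depth. The most abundant TRP channel per transcript length was Trpv6, the calcium-selective channel of epithelium and an estrogen-responsive gene, at 90.3 FPKM in tamoxifen and 51.7 in tamoxifen+primidone. It read 264, 328 and 213 and 136, 176 and 126 CPM (-0.88 ± 0.19, edgeR adjusted p = 0.125), with separated groups. Trpv2 read 18.3, 16.1 and 19.9 and 14.1, 15.6 and 13.1, and Trpm4, a calcium-activated cation channel, 77.9, 78.2 and 67.8 and 77.9, 66.1 and 54.5. Of 15 tested TRP channel genes 0 were higher and 2 lower, Trpv6 and Trpv2, at unadjusted p under 0.05, against 6.3% and 7.51% over all genes.

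Markers of other tissues varied between mice. Liver markers had a median of 0.74, with 14 of 30 higher at unadjusted p (6.3% over all genes) and 15 separated (8.08%), while tamoxifen replicate 3, at 587.4 CPM in sum, lay within the primidone range. Adipocyte markers summed to 368.9, 275.2 and 751.4 CPM in tamoxifen and 357.8, 869.7 and 315.5 in tamoxifen+primidone, with 1 high library in each group. Mast cell markers summed to 44.8, 50.63 and 55.43 and then 52.06, 138.3 and 26.66. T and NK cell markers ran from 48.15 to 74.51 CPM in tamoxifen and from 61.62 to 78.55 in tamoxifen+primidone. The summed levels overlapped between the groups for all 4 of these lists.

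**Figure D5:**
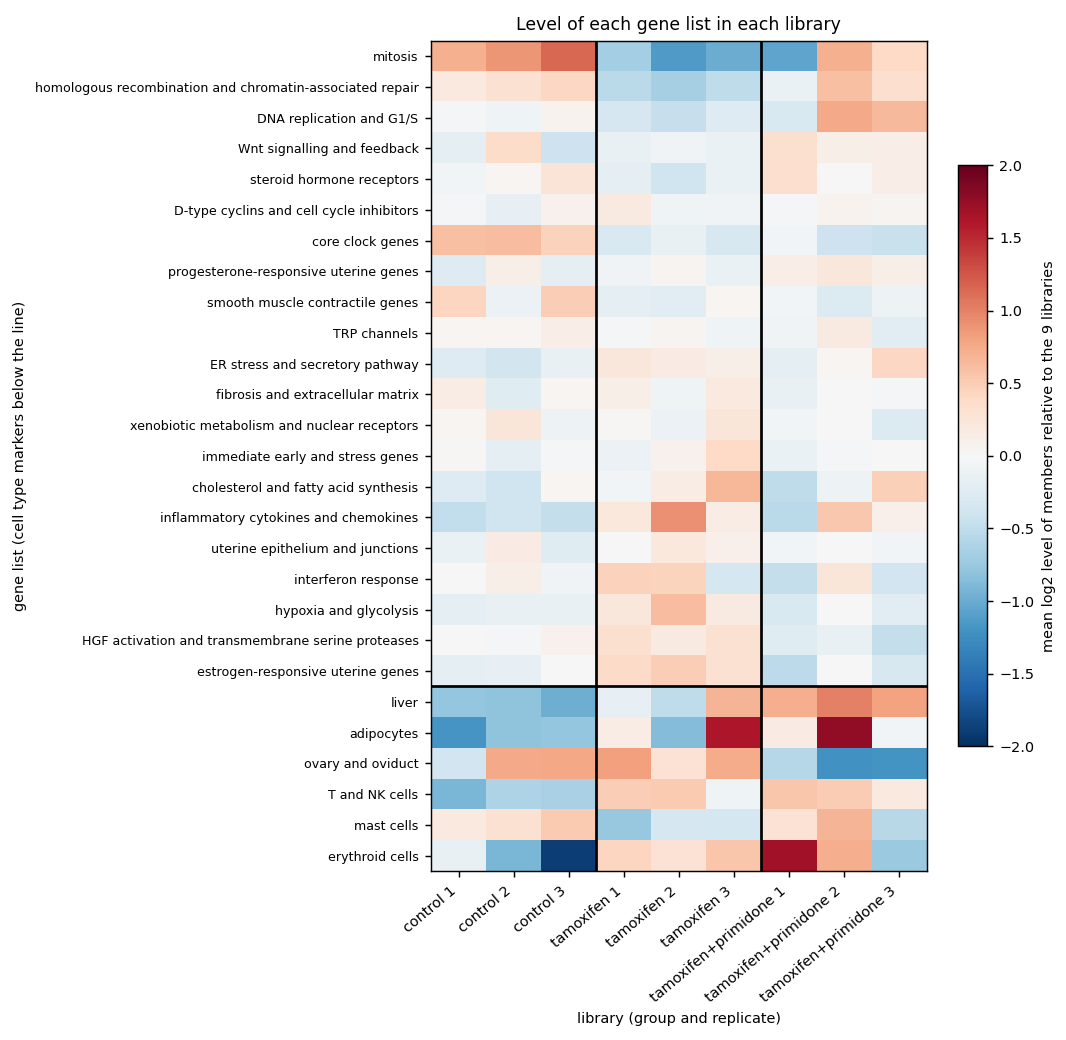
Colour gives the mean log2 level of each list's members in each library, relative to their mean over the 9 libraries, for 21 pathway lists and, below the line, 6 lists of cell type markers; vertical lines divide control, tamoxifen and tamoxifen+primidone. The mitosis row is blue in the tamoxifen libraries and in tamoxifen+primidone 1 and red elsewhere, while the estrogen-responsive row is red in tamoxifen only.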

How the data were processed

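RNA-seq of whole mouse uterus, 9 libraries in 3 groups of 3 by their titles, was re-analysed, with the 6 tamoxifen-exposed libraries as the comparison. The authors deposited raw read counts, whole numbers for 18094 gene symbols. The same genes have FPKM values, also deposited by the authors and scaled by library size and gene length. HISAT2, HTSeq, R 3.2.0, DESeq2 and build GRCm39 are named in the submitters' processing notes. Annotation and strand setting are not stated in any source used here, so reads of overlapping or antisense genes cannot be told apart.

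Counts were tested in R 4.3.3 with edgeR 4.0.16 (quasi-likelihood, TMM, default filter by group, robust) in one fit of all 9 libraries, two-sided, with Benjamini-Hochberg adjustment over 15186 genes and a threshold of 0.05. SE was obtained by dividing the size of the log2 fold change by the root of its F statistic. CPM are counts over TMM-scaled library sizes. DESeq2 1.42.0, limma 3.58.1, other scalings, filters and left-out libraries were alternatives. The code was tested on simulated data. Replicates differed beyond counting noise (chi-square per degree of freedom 19.57 to 78.47).

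Genes named were those past the threshold. Added to them in each direction were the 15 of smallest p and the 8 of largest fold change at p under 0.01, among genes of at least 2 CPM with groups that did not overlap. Of each list the 5 members of smallest p and the 2 of highest FPKM could be named, and Trpm3, Esr1 and Pgr always. Others (Met, Hgf, St14, Lcn2 and the mucins among them) were named for their role after their values were seen. Some genes within these rules are not reported here. Members and lists were chosen with earlier results of these data known. Lists are described by counts and medians and were not tested as sets. Promoter sequences are from the RefSeq table of build GRCm38.p6, matched by symbol for 11958 tested genes. It is another build than that of the counts.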

Additional observations from a re-analysis of the deposited data

How the results depend on the processing

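The count of called genes changed with the method. Higher and lower counts, 0 and 2 by the test described, were 211 and 367 with DESeq2, 2 and 7 with DESeq2 size factors in edgeR, 1 and 2 with upper-quartile factors and 3 and 18 without the low-count filter. They were 0 and 2 with limma-voom, 0 and 1 with limma on log2(FPKM + 1) or log2(FPKM + 0.1), and 0 and 0 when low FPKM values were kept. On the 6 libraries alone they were 0 and 2. Leaving out 1 library gave 0 to 62 higher and 0 to 23 lower; the highest values were without tamoxifen+primidone replicate 1, and the 0 lower was without control replicate 1. Without tamoxifen replicate 2 they were 2 and 15, and without tamoxifen+primidone replicate 3 they were 3 and 12. The cause of these changes was not tested.

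The labels do not pair the mice by replicate number. Deviations of same-numbered libraries from their group means correlated at -0.13, 0.16 and 0.18 across genes. Tamoxifen replicate 1 correlated best with another number, and tamoxifen replicates 2 and 3 with their own. With 3 libraries a group, deviations from the group mean constrain each other, so these values cannot decide whether mice were paired. With a replicate block, edgeR on the 6 libraries called 1 higher and 9 lower, with Tmprss11d at an adjusted p of 0.0517.

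Among genes named in the text, only Trpm3, Pgr, Hgf, Gdf9 and Inha changed sign. Without 1 library Trpm3 ranged from -0.29 to 0.59 (negative without tamoxifen replicate 3, at -0.21, or tamoxifen+primidone replicate 2), Pgr from -0.18 to 0.051, Hgf from -0.065 to 0.50, Gdf9 from -0.33 to 1.37 and Inha from -0.14 to 0.45. Pgr became 0.00088 with upper-quartile factors, 0.027, 0.029 and 0.027 with the 3 FPKM settings, and 0.011, 0.051 and 0.0043 without tamoxifen replicate 3 and tamoxifen+primidone replicates 2 and 3. Hgf was negative without tamoxifen replicate 3. With 3 libraries a group and a common biological coefficient of variation of 0.2026, replicate spread rather than read depth set the precision for most genes.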

Other observations

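Clock genes had no common direction, with 10 of 19 tested members positive and 9 negative (median 0.13, which became -0.15 without tamoxifen+primidone replicate 1). Bhlhe40, a repressor of the clock loop that also responds to hypoxia, read 257, 301 and 238 CPM in tamoxifen and 171, 188 and 172 in tamoxifen+primidone (-0.58 ± 0.10, edgeR adjusted p = 0.0681), and its groups did not overlap. Dbp, a direct output of the clock that swings widely over the day, read 136, 149.6 and 100.3 in control, 16.5, 21.4 and 14.3 in tamoxifen and 45.6, 20.7 and 22.4 in tamoxifen+primidone. Control thus stood apart from both tamoxifen-exposed groups, and primidone replicate 1 was the only library of these 6 above 40 CPM. Per2 read 65.7, 57.5 and 58.4, 29.0, 21.3 and 40.4 and 20.2, 18.2 and 25.6 CPM in the same order. The time of day of tissue collection is not among the labels.

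Secretory pathway genes followed the libraries more than the groups. Of 29 tested members 9 were positive and 20 negative, and the median relative to the tamoxifen mean was -0.33, -0.18 and 0.21 in primidone replicates 1, 2 and 3. Calr, the chaperone calreticulin, read 1384, 1310.1 and 1580.2 CPM in tamoxifen and 825, 1091 and 1553 in tamoxifen+primidone, so that replicate 1 was lowest and replicate 3 within the tamoxifen range. Pdia6, a disulfide isomerase of the same compartment, read 492, 458 and 515 and 232, 365 and 498. Cholesterol synthesis genes were similar, with list medians of -0.65, -0.41 and 0.25 in the 3 primidone libraries. None of these lists had more than 1 member past an unadjusted p under 0.05 in either direction, apart from 3 clock genes on the lower side.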
